A study of Mus musculus with 4 samples.

Results

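Nuclei of 2 clusters from the adult mouse mammary gland, numbered class 7 and class 3 by the authors, were compared with each other. All nuclei that carried either number in the 2 adult libraries were taken, which gave 1726 of the 7846 nuclei of the series. Class 7 held 675 nuclei in adult replicate 1 and 462 in adult replicate 2, and class 3 held 246 and 343. A further 9 nuclei of these classes came from the other 2 libraries and were left out. The series profiled chromatin accessibility by single-nucleus ATAC-seq, in which the Tn5 transposase cuts open chromatin and a pair of barcodes marks each nucleus. Its samples were fetal mammary cells of embryonic day 18 and adult mammary cells, with 2 biological replicates each. The adult groups used here were mammary cells of wild-type CD1 mice, an outbred strain, at 8 weeks of age, sorted as EpCAM+ and Lin-. The sort selects epithelium, so other cell types were depleted before the assay.

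The class numbers come from the deposited table, and how the authors made the clusters was not given in the sources used here. The tests below therefore describe how the classes differ and are no evidence that 2 populations exist. Each value is a sum or mean over the nuclei of 1 class in 1 library, so n = 2 libraries per class, and the classes were compared within a library. The labels call the libraries biological replicates but do not describe the animals behind them. The p-values and SEs rest on a spread of the class difference between these 2 libraries that was shared over features. A low p-value therefore does not show that a given feature differed alike in both libraries.

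Luminal progenitors line the ducts and alveoli of the mammary gland beside hormone-sensing mature luminal cells, with basal myoepithelial cells beneath them. They are known for the receptor Kit and the ETS factor Elf5, for their capacity to form milk-secreting alveolar cells, and for expression of innate defence genes. NF-kB, a dimer of Rel-domain proteins held in the cytoplasm by inhibitors such as Nfkbia until a signal releases it, is a main activator of such defence genes. AP-1, a dimer of Fos and Jun proteins, is induced within minutes of many stimuli, among them the dissociation of tissue.

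Both classes carried the accessibility pattern of luminal progenitors. Over the span of a gene with 2000 bases on either side, the 15 listed progenitor genes with enough reads summed to 1358 ± 7.6 CPM (SD, n = 2) in class 7 and to 1369 ± 109 CPM (SD, n = 2) in class 3. CPM here is reads per 1000000 reads in the gene spans tested, scaled over 6 adult classes. The same genes summed to means between 543 and 685 CPM in the adult basal classes 1 and 8 and the mature luminal classes 2 and 11. Kit, the receptor that marks these cells, stood at 188 ± 12.3 CPM (SD, n = 2) in class 7 and 168 ± 0.2 CPM (SD, n = 2) in class 3, against means of at most 20.6 CPM in the other 4 classes. Genes of the hormone-sensing lineage summed to 1069 and 1179 CPM in classes 7 and 3 and to 2257 and 2109 CPM in classes 2 and 11. Basal genes summed to 697 and 1057 CPM, against 2984 and 3076 CPM in classes 1 and 8. The 6 endothelial and immune genes with enough reads summed to 246 ± 25.1 CPM (SD, n = 2) in class 7 and 230 ± 10.7 CPM (SD, n = 2) in class 3. In the other 4 classes their means were 186 to 268 CPM. Of these genes Ptprc, the pan-leukocyte surface protein, ran the other way. It was at 10.0 ± 6.2 CPM (SD, n = 2) in class 7 and 21.1 ± 8.8 CPM (SD, n = 2) in class 3, and at up to 38.8 CPM in class 8.

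Class 7 nuclei made up 73.3% of the nuclei of both classes in replicate 1 and 57.4% in replicate 2. The 2 libraries shared 0 of their listed barcodes. A barcode here has 4 segments of 8 bases, and over the 4 values of the first segment the class 7 share ran from 68.5% to 79.4% in replicate 1 and from 55.0% to 59.6% in replicate 2. Over values of the other segments with at least 20 nuclei it ran from 55% to 100% in replicate 1 and from 35% to 75% in replicate 2. By the labels' protocol, 768 wells received 20 nuclei apiece when the second barcode was added, so 1 barcode pair can stand for several nuclei. Doublets were not called here. Class 7 nuclei held fewer reads, with medians of 3866 and 4897.5 in replicates 1 and 2, against 5253.5 and 6058 in class 3. The summed reads were 3059522 and 2634438 for class 7 and 1633700 and 2508058 for class 3.

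The plainest difference between the classes was how their reads divided over the genome. In class 7 the median nucleus had 27.7% of its reads in the authors' promoter regions in replicate 1 and 26.7% in replicate 2. In class 3 these medians were 21.0% and 20.9%. Both class 7 medians lay above both class 3 medians, and the difference within a library was 6.70 and 5.78 percentage points, or 6.24 ± 0.65 (SD, n = 2). Distal regions took 43.3% and 41.5% of reads in class 7 and 41.9% and 39.5% in class 3, a difference of 1.66 ± 0.41 percentage points (SD, n = 2) that was smaller than the gap between the libraries. Reads outside both kinds of region filled the remainder, with 28.8% and 31.4% in class 7 and 36.7% and 39.2% in class 3. The share on the X chromosome was 1.82% and 1.99% in class 7 and 2.19% and 2.46% in class 3. No test was made of these shares.

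**Figure D1:**
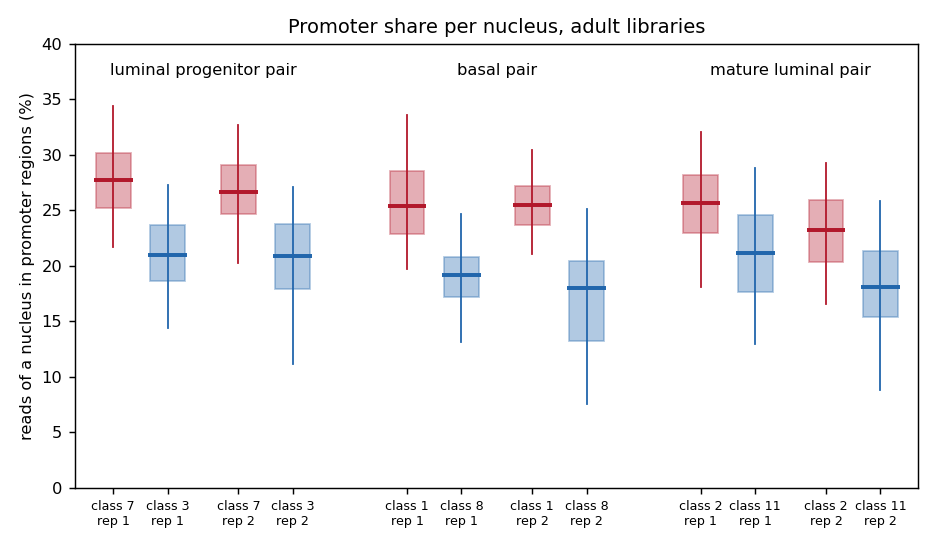
Share of each nucleus's reads in promoter regions (percent, vertical axis) for 6 adult classes in both adult replicates. Thick lines are medians, boxes span the middle 50% of nuclei and thin lines run from the 5th to the 95th percentile. The class 7 medians of 27.7% and 26.7% stand above the class 3 medians of 21.0% and 20.9%, and the basal and mature luminal pairs show a gap in the same direction.

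The promoter gap was about as large at equal depth. With every nucleus thinned to 2000 reads and equal numbers of nuclei per class, the difference was 6.15 ± 0.49 percentage points (SD, n = 2). With nuclei drawn to match on their reads, an alternative chosen after seeing the data, it was 6.08 ± 0.39 (SD, n = 2). A gap in the same direction was measured in the other epithelial lineages. Class 1 exceeded class 8, its partner among basal nuclei, by 6.17 and 7.48 points, and class 2 exceeded class 11, its partner among mature luminal nuclei, by 4.53 and 5.13 points. Whether these gaps differ from the 6.70 and 5.78 points of the progenitor classes was not tested.

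Read density around RefSeq gene starts showed the same contrast at finer scale. It peaked 25 bases before the start, at 18.9 and 18.4 read midpoints per 1000000 reads per 1000 bases per site in class 7 and at 12.6 and 13.001 in class 3. At the edges of the window, 2000 bases away, the density was 0.82 and 0.81 in class 7 and 0.80 and 0.77 in class 3. The peak therefore stood 23.0 and 22.6 times above the edge in class 7 and 15.6 and 16.8 times in class 3. At distal regions the peaks were closer together, at 7.18 and 6.90 in class 7 and 6.22 and 5.998 in class 3.

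**Figure D2:**
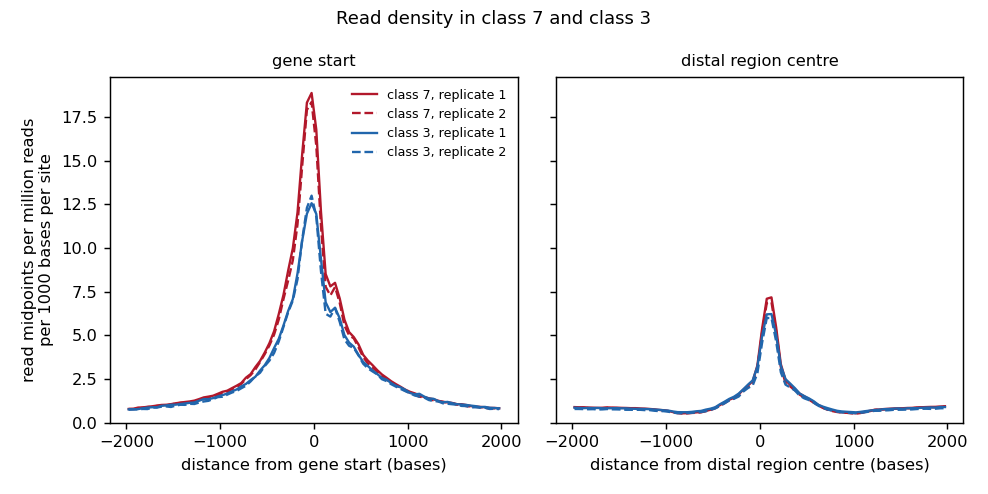
Density of read midpoints (per 1000000 reads, per 1000 bases and per site, vertical axis) against distance from RefSeq gene starts (left) and from distal region centres (right), in bases. Lines are class 7 (red) and class 3 (blue) in replicates 1 (solid) and 2 (dashed), and the class 7 lines reach 18.9 and 18.4 at gene starts where the class 3 lines reach 12.6 and 13.001.

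Reads were next counted over the span of every protein-coding RefSeq gene, which gives a value for genes without a listed region of their own. The innate defence genes around NF-kB were the listed group with the largest median difference in favour of class 7 among the lists in which a gene was called higher. Of 16177 gene spans tested, 840 were higher and 1363 were lower in class 7 at an adjusted p under 0.05 (quasi-likelihood test of edgeR with the library as a block) (5.19% and 8.43% of spans, or 13.6% in all), and 4301 had an unadjusted p under 0.05. The median log2 difference of all spans was 0.00, and that of the called spans was 0.84 in absolute size. Lists of genes were chosen with earlier results of these data known, and their counts are descriptions.

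Among the innate defence and NF-kB genes, 8 of the 16 with enough reads were higher in class 7, none was lower and 14 had a positive difference, with a median log2 difference of 0.59. In the depth-matched repeat 2 of the 12 tested were called, all 12 were positive and the median was 0.53. Lcn2 codes for lipocalin 2, which starves bacteria of iron by binding their iron carriers. It had 249 and 200 CPM in class 7 (replicates 1 and 2) and 66.7 and 70.3 CPM in class 3. Both class 7 values lay well above both class 3 values, and the log2 difference was 1.69 (SE 0.16, adjusted p = 1.74e-23).

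The neutrophil-attracting chemokine genes Cxcl1 and Cxcl2 lie next to each other on chromosome 5. Cxcl2 had 99.5 and 62.7 CPM in class 7 and 38.4 and 34.0 CPM in class 3, a log2 difference of 1.13 (SE 0.23, adjusted p = 7.65e-05). Cxcl1 had 128 and 71.1 CPM in class 7 and 42.5 and 56.3 CPM in class 3, a log2 difference of 0.93 (SE 0.21, adjusted p = 0.000256). Neither gene's classes overlapped, though replicate 2 of class 7 lay closer to class 3 than replicate 1 did.

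Genes for the NF-kB proteins and their inhibitors showed smaller differences in the same direction. Nfkb2, which codes for the p100 precursor of a DNA-binding subunit, had 134 and 117 CPM in class 7 and 78.4 and 62.5 CPM in class 3 (log2 difference 0.84, SE 0.18, adjusted p = 0.000133). Rela, which codes for the p65 activating subunit, had 70.8 and 66.2 CPM against 29.2 and 49.1 CPM (log2 difference 0.80). Relb, a further Rel-domain subunit, and Tnfaip3, an enzyme that shuts the pathway off, were higher by 0.61 and 0.68. Nfkbia, the inhibitor that holds NF-kB in the cytoplasm, was higher by 0.34 with 284 and 247 CPM against 208 and 208 CPM. In each of these the classes did not overlap. That was also so in 8834 of all 16177 spans tested and in 836 of the 840 called higher, so it adds little to a call. Nfkb1, which codes for the p105 precursor, differed by 0.31 and did not pass (adjusted p = 0.083). Not every defence gene followed, since the iron-binding Ltf was at 11.9 and 15.2 CPM in class 7 and at 28.3 and 8.92 CPM in class 3, with overlapping classes.

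The bases upstream of 4 of these genes are shown because NF-kB motif scores, given further on, had the largest difference of any motif. They are the 250 bases before a RefSeq start on GRCm38.p6, read on the gene's strand, and capitals mark matches to the kappa B motif on either strand. This motif was chosen after the values were seen. The windows lie at chr2:32387740-32387989 on the minus strand for Lcn2 and on the plus strand at chr5:90890995-90891244 for Cxcl1, chr5:90903649-90903898 for Cxcl2 and chr19:46304487-46304736 for Nfkb2.
Lcn2: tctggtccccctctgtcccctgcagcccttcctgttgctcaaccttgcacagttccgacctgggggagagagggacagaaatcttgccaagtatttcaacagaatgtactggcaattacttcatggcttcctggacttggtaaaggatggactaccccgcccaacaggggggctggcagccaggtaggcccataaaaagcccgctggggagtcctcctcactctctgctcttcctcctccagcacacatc
Cxcl1: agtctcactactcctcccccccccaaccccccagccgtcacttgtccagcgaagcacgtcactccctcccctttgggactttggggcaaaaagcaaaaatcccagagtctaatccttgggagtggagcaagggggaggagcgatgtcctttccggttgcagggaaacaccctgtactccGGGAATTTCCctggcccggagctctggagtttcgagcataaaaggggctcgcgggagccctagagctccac
Cxcl2: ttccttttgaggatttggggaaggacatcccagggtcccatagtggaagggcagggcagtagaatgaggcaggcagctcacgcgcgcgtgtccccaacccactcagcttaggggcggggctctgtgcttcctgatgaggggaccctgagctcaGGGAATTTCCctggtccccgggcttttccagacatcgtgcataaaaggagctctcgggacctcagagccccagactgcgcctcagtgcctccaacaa
Nfkb2: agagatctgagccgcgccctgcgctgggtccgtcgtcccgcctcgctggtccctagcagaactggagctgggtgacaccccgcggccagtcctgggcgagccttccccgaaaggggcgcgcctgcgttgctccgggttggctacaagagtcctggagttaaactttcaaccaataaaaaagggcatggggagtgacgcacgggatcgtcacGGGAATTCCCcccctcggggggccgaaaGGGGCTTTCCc
The Cxcl1 window held 1 match, the Cxcl2 window 1 and the Nfkb2 window 2, while the Lcn2 window held 0. Nfkb2 has 3 RefSeq starts, and the windows of the others held 0 and 1, and the Rela window had 0. In Cxcl1 and Cxcl2 the first match began 71 and 97 bases before the start. Of 32817 RefSeq promoter windows of this length, 5.00% held a match. Among tested promoter regions with a window, 6.15% of 7897 held one, as did 3.39% of the 59 called higher and 2.56% of the 39 called lower. A match is a description of the letters only.

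Some of these genes had a tested promoter region of their own. The region of Lcn2 was higher in class 7 with a log2 difference of 1.15 (SE 0.23, adjusted p = 0.00117), but DESeq2 and the fit of 6 adult classes called 0 promoter regions higher. Those of Rela (1.05, adjusted p = 0.098), Nfkb2 (0.57, adjusted p = 0.26), Tnfaip3 (0.51, adjusted p = 0.51), Nfkbia (0.33, adjusted p = 0.49) and Cxcl1 (0.25, adjusted p = 0.75) did not pass.

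The immediate early and AP-1 genes were described next. All 16 had a positive difference under this scaling, 8 of them were called higher and none lower, with a median log2 difference of 0.33. Under the level-dependent scaling described below 14 of 16 were positive with 4 called, and a fit of 6 adult classes called 3. In the depth-matched repeat 15 were positive, with 2 called. Among all spans, the shortest of 5 equal bins held 236 higher and 77 lower of 3236, and the highest bin by level 407 and 378 of 3236. The part of length and level in the lean of this list and of the innate defence list was not tested. Zfp36, whose product binds and destabilises messenger RNAs of cytokines, had 295 and 283 CPM in class 7 and 182 and 181 CPM in class 3 (log2 difference 0.67, SE 0.12, adjusted p = 5.65e-06). Fosl1, which codes for the AP-1 subunit Fra-1, had 102 and 96.5 CPM against 60.9 and 62.5 CPM (log2 difference 0.68). Jund, another AP-1 subunit, had 228 and 213 CPM against 130 and 170 CPM (log2 difference 0.55). Dusp1, Egr1, Junb, Fosb and Jun were higher by 0.33 to 0.47. Fosb had its difference in replicate 1: it had 401 and 310 CPM in class 7 and 213 and 350 CPM in class 3, so that the classes overlapped and its difference turned to -0.18 with replicate 2 alone. Fos itself differed by 0.22 and did not pass (adjusted p = 0.28).

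**Figure D3:**
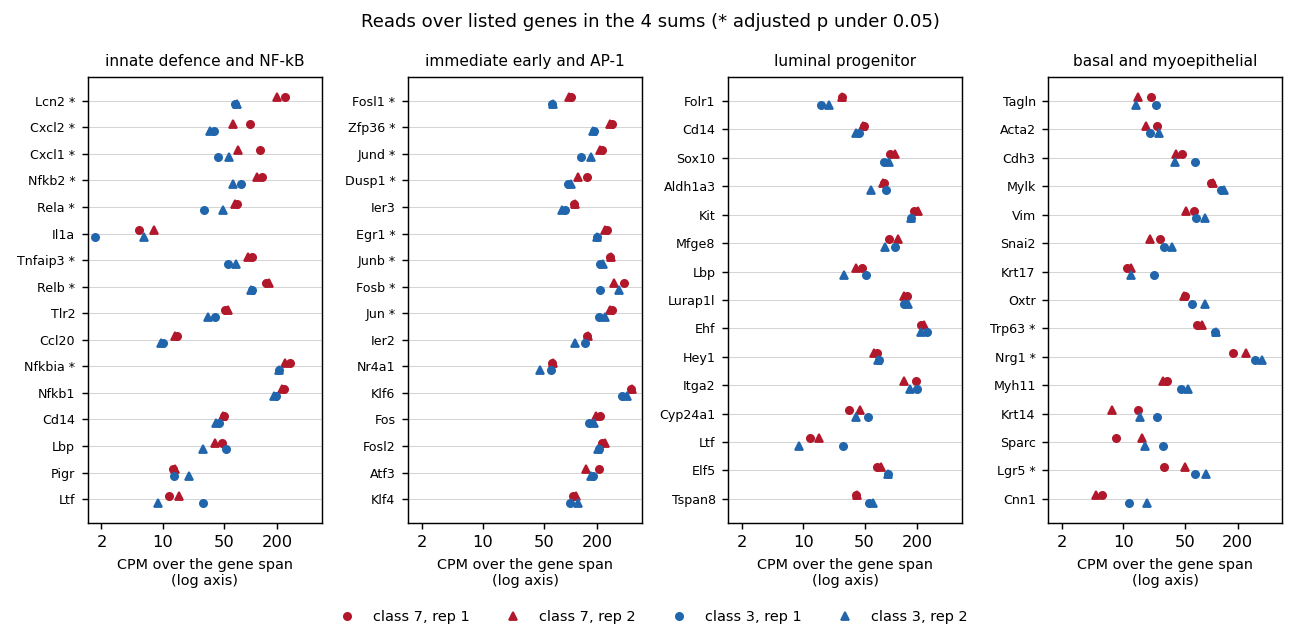
Reads over listed genes in CPM (horizontal log axis) for class 7 (red) and class 3 (blue) in replicates 1 (circles) and 2 (triangles), with genes ordered by their log2 difference and called genes marked by an asterisk. Lcn2 at the top of the first panel has class 7 at 249 and 200 CPM and class 3 at 66.7 and 70.3 CPM, and no gene of the luminal progenitor panel is marked.

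The genes that define luminal progenitors gave no call between the classes. Since 13.6% of all spans were called, a list of this size can lack a call without its genes being equal in the classes. None of the 15 tested passed, 7 had a positive difference, and their log2 differences ran from -0.54 to 0.65 with a median of -0.03. Kit had 183 and 202 CPM in class 7 and 170 and 171 CPM in class 3, a log2 difference of 0.17 (SE 0.13). Elf5, the ETS factor needed for alveolar cells, had 69.2 and 76.5 CPM in class 7 and 93.4 and 93.7 CPM in class 3, a difference of -0.36 that did not pass (adjusted p = 0.21). Among 12 tested genes of milk and alveolar differentiation none passed either, with a median of -0.12, while 1 was called lower under the level-dependent scaling and 1 of 7 in the depth-matched repeat.

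Genes of luminal epithelial identity leaned to class 7. Of 12, 3 were called higher, 11 were positive and the median was 0.32. These 3 calls became 8 under scaling by all reads, 1 under the level-dependent scaling and 0 in the depth-matched repeat, in the fit of 6 classes and with DESeq2. The tight-junction claudins Cldn7 and Cldn4 were higher by 0.81 and 0.68, and Muc1, a mucin of the luminal surface, by 0.46. Cldn4 had 90.1 and 77.9 CPM in class 7 and 53.4 and 51.3 CPM in class 3. Keratin 8 (Krt8), an intermediate filament of luminal cells, differed by 0.28 and did not pass (adjusted p = 0.13). The 12 luminal genes summed to 1835 and 1493 CPM in classes 7 and 3. In the like pairs they summed to 1709 and 1417 CPM in classes 2 and 11 and to 779 and 705 CPM in classes 1 and 8.

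Basal genes leaned to class 3. All 15 tested basal genes had a negative difference, 3 of them were called and the median was -0.53, although 1 gene under scaling by all reads and 2 under the level-dependent scaling were positive. Nrg1, a growth factor of basal cells that signals to luminal ErbB receptors, had 179 and 248 CPM in class 7 and 320 and 385 CPM in class 3 (log2 difference -0.73, SE 0.12, adjusted p = 5.91e-08). Trp63, the master regulator of basal cells, had 68.4 and 77.9 CPM against 112 and 113 CPM (log2 difference -0.62), and the R-spondin receptor Lgr5 differed by -0.96. Krt14, the basal keratin, had 14.7 and 7.35 CPM against 24.2 and 15.6 CPM and did not pass. Basal genes summed to 668 and 726 CPM in class 7 and 1011 and 1103 CPM in class 3 in replicates 1 and 2, and to 2937 to 3209 CPM in the basal classes. The mature luminal pair had a gap in the same direction, with 491 ± 26.5 CPM (SD, n = 2) in class 2 and 719 ± 34.0 CPM (SD, n = 2) in class 11. The called Nrg1, Trp63 and Lgr5 are long genes, and in the longest of 5 equal bins of all spans 920 of 3236 were lower. The part of span length, basal nuclei or barcodes with several nuclei in this difference was not tested.

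Hormone-sensing genes gave 3 calls of 16, all lower in class 7, with a median of -0.15. These were the oestrogen receptor Esr1 (-0.50), the prolactin receptor Prlr (-0.42) and Calca (-2.02), which had at most 17.3 CPM in any sum. Under scaling by all reads Esr1 and Prlr no longer passed (adjusted p = 0.071 and 0.14), and under the level-dependent scaling Calca did not (-1.42, adjusted p = 0.12). The depth-matched repeat tested 11 of these genes and called 1 higher and 1 lower. Esr1 and Prlr are also long genes. The Notch ligands Jag1 (-0.48) and Jag2 (-1.57) were the called members of the Notch list, in which 11 of 16 genes were positive with a median of 0.11, and the growth hormone receptor Ghr (-0.36) and Prlr those of the JAK-STAT list. In that list 12 of 16 genes were positive with a median of 0.15, and scaling by all reads called 4 higher and 0 lower. Fn1, the fibronectin gene, was the called member of 7 tested stromal genes (-1.28), and did not pass under scaling by all reads (adjusted p = 0.065), under the level-dependent scaling (-0.90, adjusted p = 0.22) or without the block (adjusted p = 0.064). Of these 7, 1 was positive and the median was -0.63, and they summed to 120 ± 1.2 CPM (SD, n = 2) in class 7 and 168 ± 10.4 CPM (SD, n = 2) in class 3, so stromal markers moved with the basal ones, and their part in that difference was not tested. The same stromal genes summed to 208 and 250 CPM in classes 1 and 8 and to 129 and 178 CPM in classes 2 and 11. Cd68 was the called member of 6 tested endothelial and immune genes (0.74), of which 3 were positive with a median of -0.25, and its span overlaps the translation factor gene Eif4a1. Of the 16 cell cycle genes only Plk1 (-1.31), a mitotic kinase, was called. Since 13.6% of all spans were called, so few calls in lists of this size say nothing about a list as a whole.

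Lists with no tie to the tissue also leaned to class 7. The median log2 difference was 0.25 in 16 housekeeping genes, of which 15 were positive and 3 called higher in class 7. It was 0.23 in 16 ribosomal protein genes, of which 11 were positive and 0 called. In the depth-matched repeat the housekeeping median was 0.10 with 0 called, that of ribosomal protein genes 0.38, that of immediate early genes 0.30, that of luminal genes 0.21 and that of innate defence genes 0.53. Whether lists differ from each other was not tested.

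Called gene spans differed in length as well as in sign. By size, among spans averaging 50 or more reads per sum, the leading higher ones were Lcn2 and its neighbour 1110008P14Rik (chr2:32379101-32381915), then Tsga10ip, Ficd, Tmed1, Smdt1, 0610009B22Rik and Sart1, with log2 differences of 1.23 to 1.69. Within replicates 1 and 2 the differences lay far apart for Tsga10ip (2.58 and 0.53), Sart1 (1.79 and 0.72) and Ficd (0.90 and 1.82). The padded spans of Lcn2 and 1110008P14Rik overlap, as do those of Tsga10ip and Sart1, so these pairs share reads. 1110008P14Rik had 121 and 104 CPM in class 7 and 35.9 and 45.7 CPM in class 3. The leading lower spans under the same limit were Scn9a, a voltage-gated sodium channel gene, Nova1, a neuronal splicing factor gene, Ptchd4, Plpp4, the Wnt receptor gene Ror2, the secreted protease genes Adamts20 and Adamts18, and the glutamate receptor gene Gria3, with differences of -1.78 to -2.11. Scn9a had 12.3 and 13.7 CPM in class 7 and 60.9 and 51.9 CPM in class 3 (SE 0.32, adjusted p = 1e-08).

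The median length was 16.9 kb among the 840 higher spans, 146 kb among the 1363 lower spans and 25.1 kb among all tested. In the longest of 5 equal bins of spans the median log2 difference was -0.26, with 89 higher and 920 lower, and in the shortest bin it was 0.15, with 236 higher and 77 lower. The like pairs ran the same way over these bins, from -0.25 to 0.16 in the basal pair and from -0.23 to 0.13 in the mature luminal pair. Long spans hold many bases outside promoters, where class 3 had the larger share of its reads. The share of reads outside regions moved with these calls, and its part in them was not tested.

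Promoter regions, 1000 bases wide, were fitted apart from distal ones because the share of reads in them differed. Of 12010 tested, 71 (0.591%) were higher and 65 (0.541%) lower in class 7, or 1.13% in all, and 1654 had an unadjusted p under 0.05. The called regions differed by a median of 1.35 in absolute log2. None of the 16 named here passed under DESeq2, in a fit of 6 adult classes or without the 5% of nuclei with the most reads, although their directions held. Among regions averaging 20 or more reads per sum, those with the largest rise included the promoter regions of Polrmt, the mitochondrial RNA polymerase, Rrp36, a factor of ribosome assembly, Zc3h18 and the RNA helicase gene Dhx8. The region at the start of 1110008P14Rik (chr2:32381338-32382337) had 121 and 83 reads in class 7 and 15 and 24 in class 3, or 150 and 126 CPM against 45.1 and 48.2 CPM (log2 difference 1.54, SE 0.34, adjusted p = 0.00652). The Polrmt region (chr10:79745997-79746996) had 39 and 46 reads against 5 and 5 (log2 difference 2.26, SE 0.58). Regions of Pbxip1, Rnd2 and Ssh1 completed the leading 8, with differences of 1.54 to 2.26.

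The leading lower promoter regions under the same limit held few reads in class 7. They were those of Nova1, Shisal2b, Dlgap1, Kcnh1, Slc27a3, Bend4, Pcdh7 and Spo11, with 6 to 23 reads in each class 7 sum, 20 to 41 in each class 3 sum and differences of -1.83 to -2.23. The Nova1 region (chr12:46818972-46819971) had 13.7 and 21.2 CPM in class 7 and 90.2 and 74.3 CPM in class 3, and its reads are also counted in the lower Nova1 span. Dlgap1, a scaffold of synapses, and Kcnh1, a potassium channel gene, like Nova1 are known from neurons. Among the called promoters with a RefSeq sequence, the 59 higher ones had a median of 20 CpG dinucleotides and 66% G or C in the 250 bases upstream, the 39 lower ones 13 and 61.6%, and all 7897 tested ones 17 and 61.6%. The letters CCAAT, on either strand, stood in 54.2% of the higher, 35.9% of the lower and 37.0% of all tested windows, and in 33.8% of all RefSeq windows. GGGCGG stood in 74.6%, 59.0% and 65.6% of the higher, lower and all tested windows, CCGGAAG in 13.6%, 2.56% and 14.7%, TGANTCA in 0%, 7.69% and 4.10%, TGACGTCA in 0%, 0% and 3.08% and the NRF1 motif in 1.69%, 0% and 1.68%. The NF-Y motif score, for a factor that binds CCAAT, differed by 0.05 and did not pass (Nfya, adjusted p = 0.62). Sequences were found for 60% of the lower promoters, so values for that set cover only part of it.

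Distal regions gave 150 calls of 26347 tested, or 0.569%, with 96 (0.364%) higher and 54 (0.205%) lower in class 7 and 2990 at an unadjusted p under 0.05. DESeq2 called 9 higher and 0 lower regions, and 6 were called lower without the block and 8 without the filter. The depth-matched repeat could test 71 of the 150, and it called 10 regions higher and 0 lower. Of the 16 regions named, 15 did not pass under DESeq2. The higher ones lay at the higher levels, with a median of 87.1 CPM against 26.7 CPM for the lower ones and 27.4 CPM for all tested. The clearest was a region 170411 bases from Samd9l (chr6:3200847-3201846), with 237 and 172 reads in class 7 and 22 and 41 in class 3, a log2 difference of 2.04 (SE 0.26, adjusted p = 2.97e-11). It was higher by 1.46 in the basal pair and 1.92 in the mature luminal pair as well, both called (adjusted p = 0.022 and 6.81e-09). Regions were not screened here for repeats or poor mapping, and the part of these in the difference was not tested.

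Among regions averaging 20 or more reads per sum, the largest fitted difference lay inside the Wnt5b gene (chr6:119511807-119512806), with 67 and 16 reads in class 7 and 4 and 0 in class 3, a log2 difference of 3.53 (SE 0.74). The differences within replicates 1 and 2 were 2.66 and 3.04, and the region did not pass under the level-dependent scaling (1.93, adjusted p = 0.33) or in a fit of 6 adult classes (adjusted p = 0.19). Regions inside Ifrd1, Foxred2, Errfi1 and Stag2, one 24273 bases from Add2 and one next to Gm17266 followed, with differences of 2.29 to 2.72. Errfi1 codes for an inhibitor of the EGF receptor, and its region (chr4:150858843-150859842) had 51 and 59 reads in class 7 and 6 and 8 in class 3. That of Foxred2 (chr15:77945385-77946384) had 64 and 43 against 2 and 12. In the authors' deposited table of co-accessibility this region was paired best, at a score of 0.145, with the promoter region of Eif3d, whose own difference of 1.08 did not pass (adjusted p = 0.22).

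Under the same limit, lower distal regions were led by one 69425 bases from Adgrg6 (chr10:14332159-14333158), with 8 and 10 reads in class 7 and 34 and 31 in class 3, a log2 difference of -2.51 (SE 0.53, adjusted p = 0.00216). The others lay near Ism1, Kif18a and Pkdcc, at the start of Zfp804b, and inside Soga3, Rps23rg1 and Pard3b, with differences of -1.90 to -2.05. Pard3b codes for a polarity protein, and its region (chr1:62397939-62398938) had 22 and 15 reads against 42 and 43. The region near Ism1 (chr2:139792294-139793293) had the highest co-accessibility with a promoter region among these 16, at 0.544 in the authors' deposited table, and that promoter region differed by -1.24 (adjusted p = 0.14). Called regions had few reads, and many of these calls depend on how the spread is estimated.

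The size and sign of a difference moved with the level of the feature. In the lowest of 5 equal bins of promoter regions ordered by level, at a median of 25.8 CPM, the median log2 difference was -0.36, with 0 higher and 28 lower. In the highest bin, at 159 CPM, it was 0.17, with 49 higher and 3 lower. Gene spans ran from -0.45 in the lowest bin to 0.13 in the fourth, and distal regions from -0.16 in the second bin to 0.21 in the highest. Over the same bins, not ordered by their own levels, the like pairs followed a similar course. Promoter regions ran from -0.20 to 0.06 in the basal pair and from -0.32 to 0.13 in the mature luminal pair. A fit whose scaling follows the level was therefore added after seeing the data. It called 34 promoter regions (18 higher, 16 lower), 131 distal regions (41 higher, 90 lower) and 1791 gene spans (603 higher, 1188 lower), and 31, 79 and 1608 of these were among the calls given above. Innate defence genes kept 7 calls of 16 under it, all higher, with Lcn2 at 1.63, and immediate early genes 4 of 16.

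**Figure D4:**
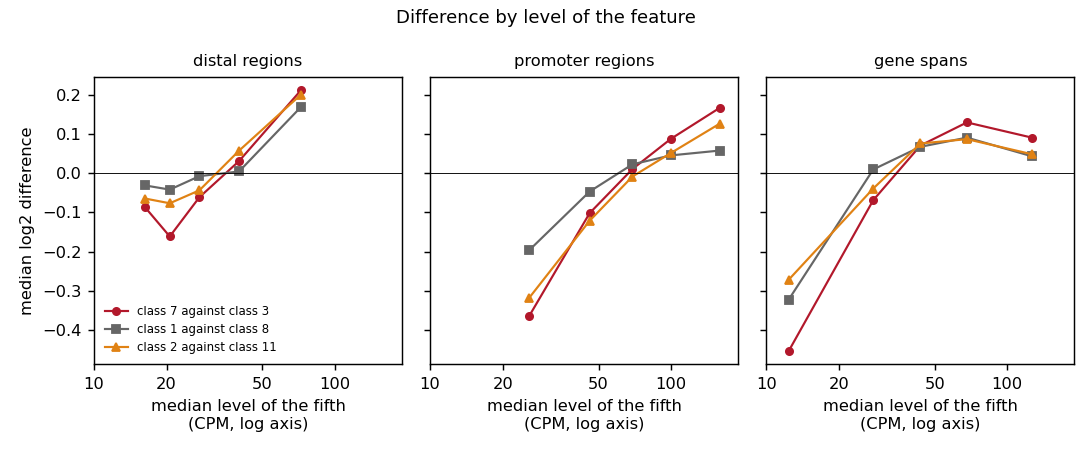
Median log2 difference (vertical axis) in 5 equal bins of distal regions, promoter regions and gene spans ordered by level, against the median CPM of the bin (log axis). All pairs share the same bins and levels, which were not set by each pair's own reads. The progenitor pair (red), basal pair (grey) and mature luminal pair (orange) all run from negative medians at low levels to positive medians at high levels, reaching -0.36 and 0.17 in the progenitor promoter regions.

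Scaling by all reads of the nuclei in place of TMM moved the median of all promoter regions to 0.35, of distal regions to 0.20 and of gene spans to 0.12. The calls followed that shift, with 1373 higher and 65 lower promoter regions, 405 higher and 49 lower distal regions, and 1721 higher and 1021 lower gene spans. The number of higher against lower calls is therefore set largely by the scaling, and the differences given here are relative to the median feature of each kind.

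Motif scores describe how accessible all regions with a transcription factor's motif are in a nucleus, relative to the average nucleus. The NF-kB motifs had the largest difference between the classes, and most families with a call were higher in class 7. Of 427 motif columns tested with limma, 152 were higher and 13 lower in class 7, or 35.6% and 3.04% (38.6% in all). Some columns hold the same scores, and the calls were 130 higher and 13 lower of 388 distinct columns. The differences were small against the spread between nuclei, with a median of 0.11 in absolute size and a maximum of 0.54, while the score of Nfkb1 varied with an SD of 1.63 to 1.83 among the nuclei of a class and library.

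All 5 NF-kB motifs were higher in class 7, with a median difference of 0.44 against 0.08 over all motifs. Nfkb1 averaged 1.498 and 1.72 in class 7 and 1.16 and 0.99 in class 3, a difference of 0.54 (SE 0.07, adjusted p = 9.79e-12). Rela averaged 1.26 and 1.36 against 0.87 and 0.82, a difference of 0.46, and Nfkb2 differed by 0.44. The classes did not overlap in any of these. The motifs of a family resemble each other, so the 5 are not separate pieces of evidence.

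Forkhead motifs followed, with 7 of 8 listed members higher. Foxc2 averaged -0.39 and -0.45 in class 7 and -0.86 and -0.89 in class 3 (difference 0.45), and Foxa1, a factor of hormone-sensing cells, -0.85 and -0.98 against -1.32 and -1.35 (difference 0.42). Both classes thus had scores below the average nucleus for these motifs. All 9 KLF and SP motifs were higher with a median of 0.34, as were 12 of 12 AP-1 and AP-1-like motifs (median 0.30), 15 of 18 ETS motifs (0.28), 6 of 7 CREB and ATF motifs (0.31) and Yy1 (0.31). Usf2, Zfp281 and Arntl were among the 8 motifs with the largest rise, at 0.42 to 0.43. In Smarcc1, Jun and Junb of the AP-1 group the classes overlapped. Jun averaged -0.17 and -0.15 in class 7 and -0.15 and -0.51 in class 3, and its difference was -0.02 with replicate 1 alone.

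The lower motifs were few. Tead4, a factor of the Hippo pathway, averaged 0.19 and 0.52 in class 7 and 0.64 and 0.82 in class 3 (difference -0.37, SE 0.07, adjusted p = 1.04e-06). Grhl1, a factor of epithelial barriers, averaged 0.34 and 0.63 against 0.89 and 0.69 (difference -0.30). Sox9 (-0.31) and Sox2 (-0.27), of a family whose 7 listed members were all negative, were lower, with 2 called. Irf2, Irf5, Irf9 and Stat2 completed the 8 motifs with the largest fall, at -0.21 to -0.36. Stat2 was the called member of 6 listed STAT motifs, whose median was -0.08, and no list of IRF motifs was made. Neither Elf5 (0.09, adjusted p = 0.30) nor Ehf (0.12, adjusted p = 0.14), ETS factors of luminal cells, passed. The STAT5 motif Stat5a differed by 0.02, the 8 E2F motifs gave no call, and the progesterone receptor motif Pgr was the called member of 5 steroid receptor motifs (0.30).

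**Figure D5:**
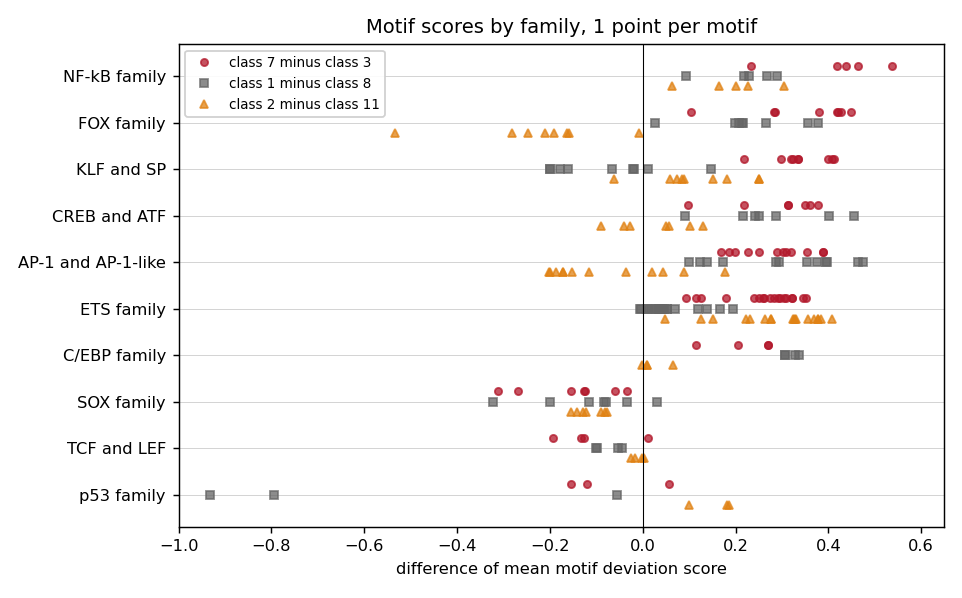
Difference of mean motif deviation score (horizontal axis) for the motifs of 10 listed families, with 1 point per motif and pair. Red circles are class 7 minus class 3, grey squares class 1 minus class 8 and orange triangles class 2 minus class 11. NF-kB motifs lie at 0.23 to 0.54 in the progenitor pair, and forkhead motifs lie above 0 in that pair and below 0 in the mature luminal pair.

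Whether the progenitor pair differs from the like pairs was tested directly, on sums of the same libraries. Across 16177 gene spans the log2 differences of the progenitor pair correlated with those of the basal pair at r = 0.44 and with those of the mature luminal pair at r = 0.54, while replicates 1 and 2 of the progenitor pair correlated at 0.48. These are correlations across genes that share libraries, depth and level, and are given as descriptions. Of the 1363 lower spans, 555 were also called lower in the basal pair and 416 in the mature luminal pair. Of the 840 higher spans these counts were 62 and 83. In all, 7.44% and 5.21% of spans were called in the basal and mature luminal pairs, 0.399% and 0.125% of distal regions, 0.05% and 0.0416% of promoter regions, and 13.1% and 4.92% of motifs. Calls in the like pairs, here and elsewhere, came from a fit of 6 adult classes, unlike the main progenitor calls. In that fit the progenitor pair had 1450 spans, 34 distal regions and 5 promoter regions called. The basal and mature luminal pairs had 1204 and 843 spans, 105 and 33 distal regions, and 6 and 5 promoter regions. All pairs were tested on the 16177 spans, 26347 distal regions and 12010 promoter regions with enough reads in the progenitor pair. Features open mainly in basal or mature luminal nuclei could therefore go untested, and the counts and shares of the like pairs do not cover them.

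In the test of the difference between pairs (edgeR), 2 of 20579 distal regions (0.00972%) and 0 of 11298 promoter regions differed between the progenitor and the basal pair, against 1731 and 721 at an unadjusted p under 0.05. For the mature luminal pair these counts were 0 of 32826 and 1 of 12627 (0.00792%), against 2297 and 798, and DESeq2 called 0 in all 4 tests. Motif scores gave 23 such differences with the basal pair (5.39%) and 14 with the mature luminal pair (3.28%, limma). Against the basal pair, 13 of the 23 were KLF or SP motifs, several with equal scores. The 23 depended on the processing, since only 13 motifs differed without the block and 2 from medians over nuclei. Sp1 differed by 0.40 in the progenitor pair and by -0.07 in the basal pair (adjusted p = 0.00088), and Klf4 by 0.30 and -0.16. Nfkb2 differed by 0.44 and 0.09 (adjusted p = 0.036). Nfkb1 and Rela had no such difference at this threshold (adjusted p = 0.18 and 0.35), and their differences were 0.29 and 0.27 in the basal pair and 0.31 and 0.23 in the mature luminal pair. Against the mature luminal pair all 14 were forkhead motifs, which hold 8 distinct sets of scores, led by Foxa1 with 0.42 in the progenitor pair and -0.53 in the mature luminal pair (adjusted p = 0.046).

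Among innate defence genes, Cxcl1 and Cxcl2 were also higher in the basal pair, by 1.31 and 2.13, and Nfkbia in the mature luminal pair, by 0.61. Lcn2 differed by 0.57 in the basal pair and by -0.48 in the mature luminal pair, and neither passed (adjusted p = 0.32 and 0.74). Its level was 33.2 to 60.9 CPM in the basal classes and at most 5.64 CPM in the mature luminal ones, and the difference between pairs was not tested for gene spans. Of the 16 immediate early genes, Fos (0.75), Fosb (0.74), Junb (0.54) and Atf3 (0.72) were called higher in the basal pair, and Fos (0.60), Fosb (0.56), Jun (0.49), Egr1 (0.56) and Zfp36 (0.57) in the mature luminal pair. Fos thus passed in both like pairs and not in the progenitor pair. That pair was fitted apart from them, and whether the pairs differ was not tested. Nrg1 was lower in the mature luminal pair too (-0.85), as was Adamts20 (-0.85). In the basal pair Scn9a (-1.92), Plpp4 (-1.55), Prlr (-1.43), Gria3 (-1.35) and Ror2 (-0.91) were called lower and Cldn4 (1.49) higher. Of the leading lower spans, Nova1, Ptchd4 and Adamts18 passed in neither like pair, nor did any of the 8 leading higher ones.

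The calls depended on the count model. DESeq2 called 216 gene spans (30 higher, 186 lower), 9 distal regions and 1 promoter region, all of them among the edgeR calls, and thinning to equal depth left 604, 10 and 5 calls from fewer reads, of which 548, 10 and 2 were among them. Of the spans named or listed above that were called, Lcn2, 1110008P14Rik, Nrg1, Zfp36 and the 8 leading lower spans passed under DESeq2 as well, and the region near Samd9l did so among distal regions. Cxcl2 and Nfkb2 kept their size but not their call (1.13 with adjusted p = 0.099, and 0.85 with adjusted p = 0.12), and 1 of the 16 innate defence genes and 1 of the 16 immediate early genes passed. With 1 residual degree of freedom per feature in the main fits, the edgeR calls rest largely on the spread estimated over all features. The limma calls rest in the same way on that over all motifs. A feature whose replicates lie far apart can thus be called, as Tsga10ip was (2.58 and 0.53 in replicates 1 and 2).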

How the data were processed

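Single-nucleus ATAC-seq reads of 2 adult libraries were analysed. Reads per nucleus were counted from deposited lists of aligned reads, so the counts start from positions the authors had aligned. The submitters' processing notes name Bowtie2, MACS2, bedtools and the mm10 build, with no role or version. Whether read ends were shifted for Tn5 or duplicates removed was not given in the sources used here. The motif values are chromVAR deviation scores deposited by the authors with the class of each nucleus, and the depth deposited there equalled the listed reads in all 5269 adult nuclei. The regions are the authors' deposited distal and promoter lists, and coordinates were taken as they stand in the files. Of the deposited tables, the gene accessibility scores were not used. The tables used held 0 further columns of per-sample values.

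Reads overlapping a region, or a RefSeq gene span of GRCm38.p6 with 2000 bases on either side, by at least 1 base were summed per class and library. The same read can overlap several spans. Features whose 4 sums averaged 10 reads or more were fitted in edgeR 4.0.16 (R 4.3.3) with TMM scaling (factors 0.976 to 1.03) and the quasi-likelihood test, with class and library as terms, and p-values were adjusted by Benjamini-Hochberg over all features of a kind at 0.05. The library is a block because both sums come from the same library. Each fit left 1 residual degree of freedom. SE was the absolute log2 difference divided by the square root of F. Mean motif scores were fitted with limma 3.58.1 in the same design. Differences between pairs were contrasts over 4 classes, with the limit of 10 reads set on the mean over the sums of all 4. The fits were also run on simulated data with a fixed dispersion. That dispersion was not estimated from these libraries, so the runs do not measure the error rate of the calls. DESeq2 1.42.0 was an alternative. Tested sums held 326542 to 2439200 reads, which limits low features.

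Named features were the 8 with the largest difference in each direction among those called whose classes did not overlap, with a mean of at least 20 reads for regions and 50 for gene spans, and the 8 such motifs with equal columns counted once, together with listed genes and motifs. The members, lists and tests were chosen with earlier results of these data known. Alternatives were other scalings, filters, DESeq2, thinning to 2000 reads per nucleus, and leaving out 5% of nuclei or a library. A scaling that follows the level (loess span 0.3) and matching nuclei on reads were added after seeing the data. The result of 1 further gene list is not reported here.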

Additional observations from a re-analysis of the deposited data

Results flagged for a closer look

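The results here are those in which the progenitor pair differed from a like pair in a direct test of the difference. A distal region inside Hunk (chr16:90468016-90469015) had a difference between pairs of -6.84 on the log2 scale against the basal pair (edgeR, adjusted p = 0.0189). It held 0 and 0 reads in class 7 and 8 and 10 in class 3, but 47 and 87 in class 1 and 20 and 44 in class 8. Because class 7 was at 0, the size depends on the prior count of the fit and is no bound. A distal region 96076 bases from Cxcl12 (chr6:117071460-117072459) differed by -5.05 in the same test (adjusted p = 0.0189), with 0 and 2 reads in class 7, 13 and 9 in class 3, 59 and 107 in class 1 and 15 and 43 in class 8. DESeq2 called neither.

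A promoter region on chromosome 2 (chr2:98666604-98667603), 1034932 bases from Lrrc4c, differed by -1.10 from the mature luminal pair (edgeR, adjusted p = 0.009). It held 198 and 227 reads in class 7, 222 and 399 in class 3, 664 and 1007 in class 2 and 206 and 553 in class 11, and DESeq2 did not call it. This region was not screened for repeats or poor mapping either.

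Motif scores gave the other differences between pairs (limma). Against the basal pair the largest were Trp73 (0.81), Trp63 (0.64) and Gata2 (-0.58). Trp63 differed by -0.15 between classes 7 and 3 and by -0.80 between classes 1 and 8. Against the mature luminal pair the largest were Foxa1 (0.95), Foxn3 (0.63) and Foxn2 (0.61).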

How the results depend on the processing

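Counts of calls moved with most choices. For the 150 distal regions, 136 promoter regions and 2203 gene spans, DESeq2 gave 9, 1 and 216, the depth-matched repeat 10, 5 and 604, and 6 adult classes in one fit 34, 5 and 1450. Scaling by all reads gave 454, 1438 and 2742, with 89.2%, 95.5% and 62.8% of calls higher in class 7 against 64%, 52.2% and 38.1%. A mean of at least 30 reads gave 67, 57 and 1952. Without the replicate block these were 34, 57 and 1664. Leaving out the top 5% of nuclei gave 5 promoter regions, and the level-dependent scaling 34. The distal share difference was 2.29 points from pooled reads against 1.66 from medians. Leaving out a library left 1 sum per class and no residual degrees of freedom, so counts could not be recomputed. The promoter share difference then ran from 5.78 to 6.70 points and the distal one from 1.37 to 1.94. Fosb ran from -0.18 to 0.91 and the Jun motif from -0.021 to 0.36. The 2 distal differences from the basal pair became 0 with DESeq2, 5 with all reads, 20 with at least 30 reads and 0 depth-matched. The mature luminal pair gave 3 distal ones with at least 30 reads, and its 1 promoter region became 0 with no replicate block, DESeq2 or all reads. The 23 motif differences from the basal pair were 13 without the block on the pairing and 2 from medians over nuclei. Motif calls between the classes ranged from 110 to 165. The cause of these shifts was not tested. Tested sums averaged as few as 10 reads, which limits precision there.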
